A study of Mus musculus with 12 samples.

Results

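The regions described here are LARP1 binding regions in non-coding exons of naive CD4 T cells. They were called by PureCLIP in LARP1 eCLIP libraries, and the base at which cDNA synthesis stopped, next to a crosslink, marks each one. A region was included when it overlapped, on its own strand, an exon of a GENCODE M21 (GRCm38) transcript that has no coding sequence, and overlapped no 5'UTR, CDS or 3'UTR of any transcript. Regions on chrY and in 8 snoRNA host genes (Gas5, Zfas1, Snhg1, Snhg3, Snhg5, Snhg6, Snhg8 and Snhg12) were left out. This gave 320 of 5556 regions in the lists of both genotypes. The control list held 134 of 3189 regions (4.20%, Wilson 95% interval 3.56 to 4.96) and the Rnmt cKO list 186 of 2367 (7.86%, 6.84 to 9.01). The 8 host genes had 6 further regions in each list. All intervals cover counting error over regions only, except those of C and T shares, which count bases.

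Control mice were Rnmt fl/fl CD4cre -, and cKO mice were Rnmt fl/fl CD4cre +, so both carried the floxed allele of Rnmt, the cap guanosine methyltransferase, and only the cKO carried the Cre that acts in T cells. Both groups were female, and the cells were naive CD4 T cells crosslinked with 400 mJ of 254 nm ultraviolet light and precipitated with the same LARP1 antibody. Each genotype was represented by 1 library. No difference between genotypes was therefore tested, and the sequencing depth cannot be read from the lists. PureCLIP scores were not scaled between libraries, so each score is given as a percentile of its own list. This is its rank, counted from the lowest score, as a percentage of all regions in that list, with tied scores given their mean rank. The CD4 T cell markers Cd3d and Cd4 had an exonic region of any class in at least 1 of the lists, whereas the 4 B cell, 2 CD8 T cell and 3 myeloid markers had none. The erythroid gene Hbb-bs, 1 of 2 erythroid markers, had a region in the control list.

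LARP1 binds the cap and the pyrimidine-rich 5' end of TOP mRNAs, which encode ribosomal proteins and translation factors. Some lncRNAs that host snoRNAs in their introns also start with such a tract, while Malat1 and Neat1 remain in the nucleus. Processed pseudogenes are reverse-transcribed copies of mRNAs and can be nearly identical to them. Many protein-coding genes have, in addition, annotated transcripts without a reading frame, most often with a retained intron, and these transcripts account for the non-coding exons of protein-coding genes.

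The sequences that follow show the kinds of position at which regions lay. Each is the sense strand, 5' to 3', in GRCm38. Bases in annotated exons are from GENCODE M21 transcripts, and bases upstream of a transcript are from RefSeq promoters (GRCm38.p6). The first set shows regions at a transcription start site (TSS), with the region in capitals.
Ppib, cKO, chr9:66060222-66060251, plus strand: TTTTCcggtccgggctgcccgaccgctctt
Gm10076, cKO, chr14:105681828-105681857, plus strand: GCtctcggtcttagcgccatcttccttgag
2410006H16Rik, control, chr11:62602871-62602900, plus strand: gtctttctctGcggccatcatgggatcgtg
1110038B12Rik, cKO, chr17:34952445-34952474, minus strand: acgggtctctTTgtgcacccgcccacacgg
Eif3a, both lists, chr19:60790637-60790666, minus strand: ggttccttccTTTccgtctctggccggctg
Regions in 4 of these genes lay in or next to a run of C and T, and the region in Gm10076 opened with a G ahead of one.

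The second set shows regions that started on the last base of an annotated intron, with the region in capitals. In each, the capital G closes the AG of the splice acceptor.
Rps19, both lists, chr7:24888896-24888925, plus strand: tctttgtacaGgggccgcaagctgacgcct
Rps25, cKO, chr9:44407977-44408006, plus strand: tcttcccctaGcctcccaaagacgacaaga
Rps16, cKO, chr7:28352352-28352381, plus strand: gtgtcttgcaGccatccgacagtccatctc
Eef1g, cKO, chr19:8969353-8969382, plus strand: tgcctttgcaGtaagcaatgaggagctgcg

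The third set shows the 3 regions of Malat1 in the control list, with the region in capitals. Each follows a run of at least 3 G.
Malat1, control, chr19:5797730-5797759, minus strand: gggggatgggGcttacttgttctagctttt
Malat1, control, chr19:5799976-5800005, minus strand: ggtgggtgggGgtgttaggtaattgtttag
Malat1, control, chr19:5799357-5799386, minus strand: tgagggagggGaaacctttttttttctgta

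The fourth set shows control regions followed by a recurrent 8-mer, which is in capitals here in place of the region.
Ak7, control, chr12:105747362-105747391, plus strand: ccagagctctTCCGATCTggttctaaaatg
Mrpl3, control, chr9:105064800-105064829, plus strand: cacgggctctTCCGATCTtagagaagttac
5033428I22Rik, control, chr8:57349437-57349466, plus strand: tcttttctTCCGATCTcccaccccccactt
n-R5s207, control, chr2:164157463-164157492, minus strand: tgacttctTCCGATCTtaagaggccaagca

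By gene type, non-coding exons of protein-coding genes held the most regions, with 71 in control and 110 in cKO. lncRNAs held 30 and 43, pseudogenes 18 and 23, and other gene types 15 and 10. The other types were TEC transcripts, which await experimental evidence (12 and 8 regions), and 5S-like rRNA genes (3 and 2). The regions fell in 124 genes in control and 135 in cKO, of which 43 were in both lists. The overlap by gene was 11 of 26 for pseudogenes, 10 of 33 for lncRNAs, 19 of 135 for protein-coding genes and 3 of 22 for the others. Several regions in 1 gene were more frequent in cKO, where 26 genes had at least 2 (77 regions, 41.4%), than in control, where 9 genes did (19 regions, 14.2%). The same share was not computed over all regions of each list, so this contrast is not shown to be particular to non-coding exons.

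A region that had a base in common with one from the other genotype, on the same strand, was called shared. In control 36 of 134 regions were shared (26.9%, 20.1 to 34.9), and over the whole list 26.3% were. In cKO 36 of 186 were shared (19.4%, 14.3 to 25.6), below the 35.4% of the whole list. Regions in 5'UTRs, the class in which TOP motifs lie, were shared in 77.8% of cases in control and 67.0% in cKO. In CDS the shares were 63.8% and 30.6%, in introns 14.5% and 23.2%, and in 3'UTRs 25.5% and 11.7%. Regions outside genes and the 100 nt upstream of them were shared in 15.9% and 61.9% of cases. They made up 40.5% of the control and 14.0% of the cKO list, so the whole-list shares are not alike in make-up. Within non-coding exons the shared regions were unevenly spread over gene types. They made up 9 of 18 control and 9 of 23 cKO regions in pseudogenes, 12 of 30 and 12 of 43 in lncRNAs, but 12 of 71 and 12 of 110 in protein-coding genes.

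**Figure D1:**
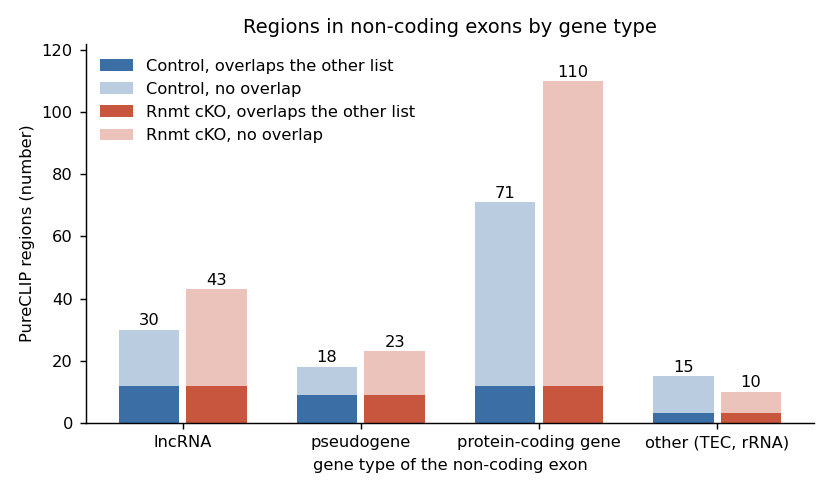
Number of PureCLIP regions (y axis) in non-coding exons by gene type (x axis) for the control (blue) and Rnmt cKO (red) lists, 1 library each, with dark segments for regions that overlap the other list. Protein-coding genes hold 71 and 110 regions, of which 12 in each list overlap, whereas 9 of 18 and 9 of 23 pseudogene regions do.

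The score rank of the regions was low to intermediate. The median percentile was 37.1 in control (95% order-statistic interval 31.3 to 47.3) and 49.0 in cKO (43.4 to 56.2), against 81.1 and 79.7 for 5'UTR regions. lncRNA regions had medians of 60.1 and 65.8, and pseudogene regions 63.4 and 55.3. Protein-coding genes were lower, at 30.8 and 40.9, close to the 34.2 and 33.9 of intronic regions. Of the lncRNA regions, 11 of 30 in control and 15 of 43 in cKO had a percentile above 75, whereas 7 of 71 and 10 of 110 regions in protein-coding genes were. Shared regions ranked higher than the rest, with a median percentile of 69.5 against 30.6 in control and of 67.7 against 44.1 in cKO. The best ranked region overall was 166 of 3189 in control, in Ak7, and 163 of 2367 in cKO, in Ppib.

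**Figure D2:**
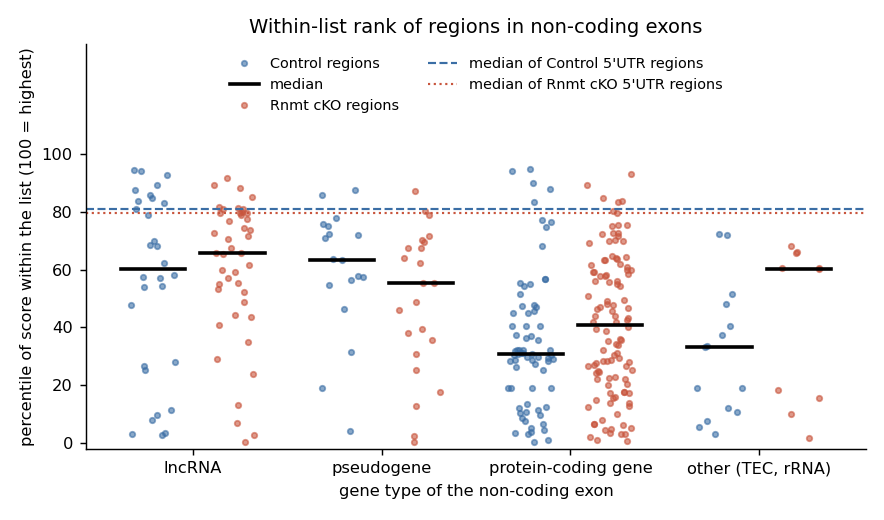
Percentile of the PureCLIP score within its own list (y axis, 100 is the highest score) of every region in a non-coding exon, by gene type (x axis), with control in blue, Rnmt cKO in red, and black bars for medians. The dashed and dotted lines are the medians of 5'UTR regions, 81.1 and 79.7, and the medians of all 4 gene types lie under them in both lists.

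Regions with at least 2 crosslink sites, the single bases that PureCLIP joins into a region, were few in control. There were 10 of 134 (7.46%, 4.10 to 13.2), against 17.4% of the whole list. In cKO there were 57 of 186 (30.6%, 24.5 to 37.6), against 45.3% of the whole list. The share was therefore lower in non-coding exons than over all regions of the same list in both genotypes. This was not particular to them, since intronic regions, at 9.17% and 31.5%, and 3'UTR regions, at 7.98% and 37.9%, were also lower. CDS regions, at 17.3% and 48.0%, were near the whole lists, and 5'UTR regions, at 56.3% and 75.9%, were above them. By gene type it was highest in lncRNAs, with 4 of 30 in control and 18 of 43 in cKO. Pseudogenes, with 2 of 18 and 8 of 23, had overlapping intervals, so the types are not clearly ranked.

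Among lncRNAs, Malat1, a nuclear RNA found in speckles, had the most regions. Its 3 control regions had percentiles of 85.6, 84.8 and 83.7, and all 3 were shared. Its 12 cKO regions ranged from 60.0 to 89.4, with the lowest one nearest to the 5' end. They lay between 864 and 6505 nt from the first base of the gene, which is 6983 nt long, so none was near the annotated start. The letters GGG, read on the sense strand, lay within the 5 nt before the region in 3 of 3 control and 5 of 12 cKO regions. Over all non-coding exon regions with annotated bases there, this was so for 11 of 127 in control (8.66%) and 23 of 177 in cKO (13.0%), beside 2.77% and 4.42% of 5'UTR regions and 20.2% and 13.1% of 3'UTR regions. Neat1, which builds paraspeckles, had 1 cKO region at 80.0, and Kcnq1ot1, an imprinted antisense RNA, had 1 control region at 8.0. Of 10 well-known lncRNAs listed, these 3 had regions under their own names. Norad, a mainly cytoplasmic member of that list annotated as 2900097C17Rik, had 1 cKO region at 35.0.

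The uncharacterised lncRNA 2010016I18Rik, of 3932 nt, had 1 control region at 68.2 and 7 cKO regions from 13.1 to 88.2. The control region had the same position as the cKO region at 72.8. The snoRNA host 2410006H16Rik had 2 control regions, at 62.1 and 54.4, and 5 cKO regions, of which the one at the TSS was at 91.8 and the lowest at 7.0. In that TSS region 1 crosslink site was called in control and 4 in cKO. Both control regions of this gene were shared.

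**Figure D3:**
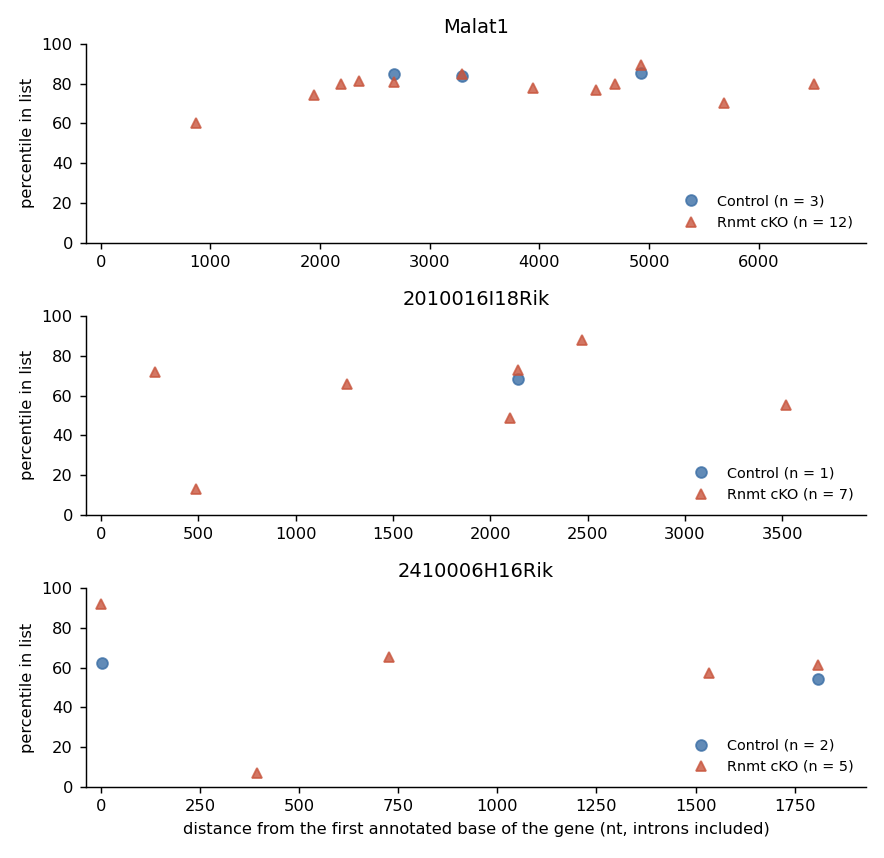
Percentile of each region (y axis) against its distance in nt from the first annotated base of the gene (x axis) for Malat1, 2010016I18Rik and 2410006H16Rik, with control as blue circles and Rnmt cKO as red triangles, 1 library each. The 12 cKO regions of Malat1 are spread over the gene from 864 to 6505 nt, and the highest cKO region of 2410006H16Rik lies at its start.

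Other snoRNA hosts had regions at their starts. Epb41l4aos had 1 region in each list, at 81.1 in control and 54.9 in cKO, 2 and 1 nt downstream of the TSS. 1110038B12Rik had 1 region in each list, at 58.1 and 40.9. Both began 2 nt upstream of the nearest annotated TSS and 4 nt downstream of the RefSeq start of the gene. Snhg17 had 1 region, in control, at 3.4 and 363 nt from the nearest TSS. Of 14 further snoRNA hosts listed, 11 of them annotated under those names, only Epb41l4aos and Snhg17 had a region. Over all lncRNAs, 5 of 30 control and 7 of 43 cKO regions were in a gene with an annotated snoRNA inside it.

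The highest lncRNA region in control was that of Gm10076, at 94.5. It started on the first annotated base in both lists and was at 78.7 in cKO. The 30 nt from its first base occur with 1 mismatch in Rpl41, a ribosomal protein gene, so reads of the 2 genes are not told apart with certainty. A further control region of Gm10076 was at 47.7. 1700027A15Rik, at 93.9, and 5033428I22Rik, at 89.3, had a region in control only. Gm49797 had the same 2 nt region in both lists, at 92.7 and 73.5, and Gm14964 was at 83.0 and 53.2. Gm42418 had 1 control region at 87.6 and 3 cKO regions at 81.3, 80.8 and 23.8. This gene overlaps the RefSeq gene Rn18s-rs5, an 18S rRNA-related sequence.

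Pseudogenes with regions were mostly copies of ribosomal protein genes. A complete window of 30 nt from the first base was available for 16 of 18 control and 18 of 23 cKO regions. In all 16 and all 18, the window occurred with at most 2 mismatches in a protein-coding gene, a cytosolic ribosomal protein gene in 15 and 17 of them. The window was identical to one in another gene in 15 of the 16 and 16 of the 18, and over those bases reads of the genes cannot be told apart. Regions of the pseudogene type had no member with the recurrent 8-mer.

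Rps10-ps1, a copy of Rps10, was at 87.5 in control and 80.3 in cKO, and Rps10-ps2 at 70.8 and 79.0. Gm9320, matching Rps24, was at 56.3 with 1 crosslink site in control and at 87.1 with 8 sites in cKO. Gm13456, whose window is identical to one in the translation factor gene Eef1a1, was at 85.9 in control only. These 4 included the highest ranked pseudogene region of each list. Gm14303 (Rps29) was at 75.6 and 69.4, Gm9843 (Fau) at 74.9 and at 71.6 and 39.6 for 2 cKO regions, and Gm10275 (Rpl12) at 72.3 in control only. Gm5781, at 77.8 in control, had no complete window. Of 300 pseudogenes named after ribosomal protein genes, 6 had a region in control and 9 in cKO.

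In protein-coding genes, the region lay in a transcript with a retained intron in 61 of 71 cases in control (85.9%) and 93 of 110 in cKO (84.5%). It was inside an intron of a coding transcript of the same gene in 67 of 71 (94.4%) and 107 of 110 (97.3%). The inclusion rule largely fixes these shares, since a region within the span of a coding transcript could lie only in its introns. Crosslinks to a retained intron and to the unspliced precursor RNA cannot be told apart in these lists.

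Ak7, an adenylate kinase, had the top region in control, at 94.8, and none in cKO. Mrpl3, a mitochondrial ribosomal protein, was at 94.0 in control only. Both of these regions were followed by the recurrent 8-mer. Ppib, the endoplasmic reticulum cyclophilin B, was at 87.7 with 2 crosslink sites in control and at 93.2 with 5 in cKO. Its region began on a GENCODE TSS, 53 nt downstream of the RefSeq start of the gene. Eif3a, the largest subunit of translation initiation factor 3 and encoded by a TOP mRNA, had a region of 3 sites at the same bases in both lists, at 74.8 and 83.7. H2-K1, a classical MHC class I heavy chain, was at 83.2 in cKO only.

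Of the 87 cytosolic ribosomal protein genes, 3 had a region in a non-coding exon in control (Rpl35a, Rps19 and Rps21) and 6 in cKO (Rpl18, Rpl35a, Rps16, Rps18, Rps19 and Rps25). Rps21 was at 89.9 in control, Rps25 at 89.1 in cKO, and Rps19 at 83.2 and 84.8. Of 22 other TOP mRNA genes, Eif3a and Tpt1 had a region in control and Eef1g and Eif3a in cKO. The high ranking regions in ribosomal protein genes lay on the last base of an intron. In all, 3 control regions (Rps21, Rps19 and Eif3k) and 7 cKO regions (Rps19, Rps25, Rps16, Rpl18, Eef1g, Psme1 and Myl6) were at such a base, with median percentiles of 83.2 and 64.4. They made up 2.24% and 3.76% of the regions in non-coding exons, beside 1.02% and 1.72% of CDS regions and 0.331% and 0.568% of 5'UTR regions. The 30 nt from the first base had a near copy in another gene in 2 of these 3 and in 7 of these 7.

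Genes of splicing and RNA processing recurred among the protein-coding genes. In a list of 38 such genes, drawn up after the regions had been seen, 8 genes had 8 regions in control and 19 genes had 27 in cKO, and the choice of the list means that these counts are a description only. All 8 and all 27 were inside an intron of a coding transcript, which the inclusion rule largely fixes. Their median percentiles were 30.5 and 41.8, close to those of all regions in protein-coding genes, and 1 in each list was shared, in Srsf6 (55.3 and 71.5), an SR splicing factor. Snrnp70, the U1 snRNP protein, had 4 cKO regions from 2.2 to 69.7. Arglu1 had 4 cKO regions from 35.4 to 59.1 and 1 control region at 25.4. Of 15 genes of the MHC class I pathway, a list also drawn up afterwards, none had a region in control and 6 had 1 each in cKO (H2-K1, H2-Q10, H2-Q4, H2-Q7, Psme1 and Tap1). These counts too are a description only. Among all protein-coding genes, 66 had a region in control and 88 in cKO. The 30 nt window of each of H2-K1 and H2-Q4 occurs with 2 mismatches in a transcript of the other gene. The window of H2-Q7 occurs with 1 mismatch in H2-Q10, and that of H2-Q10, at another position, is identical to one in H2-Q7.

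Other protein-coding genes with several regions were Ogt, the O-GlcNAc transferase, with 4 in cKO from 6.6 to 79.4, and Ikbke, a kinase of interferon signalling, with 2 in each list. The Ikbke regions were at 68.0 and 32.0 in control and at 80.2 and 31.3 in cKO, and the higher one was at the same 2 nt in both. Ptprc, which encodes CD45, had 2 cKO regions at 55.8 and 51.0. Msn, which encodes moesin, had a shared region at 13.4 in control and 63.3 in cKO.

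Among other gene types, no region had a percentile above 75 in either list. The TEC gene Gm44914 was at 72.4 in control, with the recurrent 8-mer. Gm49553 was at 71.8 and 60.4, and Gm42826 at 68.3 in cKO. Gm36931, at 60.4 in cKO, lies inside Satb1, a chromatin organiser of T cells. The 5S-like genes n-R5s158, at 51.4 and 66.1, and n-R5s175, at 65.7 in cKO, had regions on their first base. None of 11 structured small RNA genes, such as Rmrp and Rn7sk, and none of 24 mitochondrial rRNA and tRNA genes had a region in either list.

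The 35 pairs of shared regions in which both were in non-coding exons held 12 pairs in lncRNAs, 9 in pseudogenes, 11 in protein-coding genes and 3 in other types. In 31 of the 35 the 5' end was the same base. The percentile was higher in control in 18 of 35, and Spearman's rho of the percentiles was 0.60 over the 35 pairs, given as a description, since pairs share genes. Among these pairs the widest gaps were in Msn (13.4 in control and 63.3 in cKO), Gm9843 (74.9 and 39.6), the TEC gene Gm49759 (33.5 and 1.8) and Gm9320 (56.3 and 87.1), so that the wide gaps ran in both directions. Rps21 in control and Eef1g in cKO were each shared with a region of another class in the other list, at 77.9 and 71.5.

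**Figure D4:**
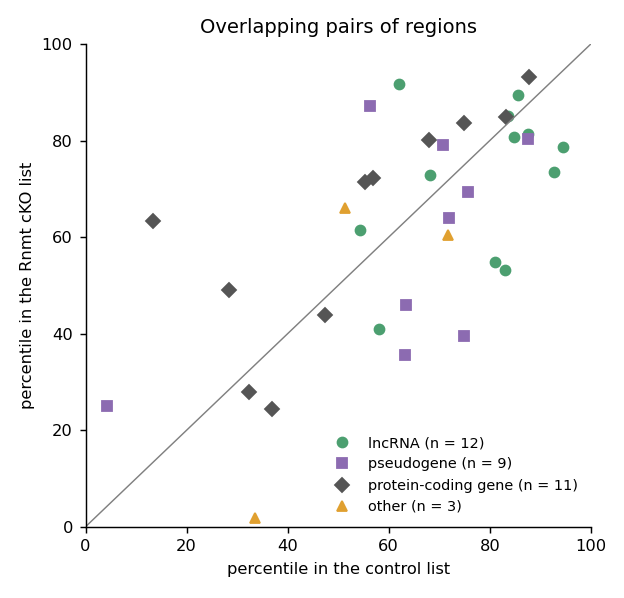
Percentile in the Rnmt cKO list (y axis) against percentile in the control list (x axis) for the 35 pairs of overlapping regions in non-coding exons, coloured by gene type, with the diagonal marking equal percentiles. Of the 35 pairs, 18 lie on the side of a higher percentile in control.

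Position was measured from the nearest annotated TSS on the same strand. Within 50 nt of a TSS lay 24 of 134 control regions (17.9%, 12.3 to 25.3), against 11.7% of the whole list, and 23 of 186 cKO regions (12.4%, 8.38 to 17.9), against 16.5%. For regions in 5'UTRs these shares were 86.1% and 80.1%. The whole lists include regions outside genes and the 100 nt upstream of them, which by definition lie away from a TSS. Such regions were 40.5% of the control and 14.0% of the cKO list, so the whole-list shares are not alike in make-up. Of the 24 and 23, 15 and 13 were within 10 nt. By gene type, 6 and 7 were in lncRNAs, 4 and 4 in pseudogenes, 11 and 10 in protein-coding genes and 3 and 2 in other types. Of those in protein-coding genes, 2 of 11 and 2 of 10 lay within 50 nt of the first base of the gene, in Ppib and Eif3a, and the rest were at starts of shorter transcripts inside the gene.

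The share of C and T around the 5' end of the region was higher near a TSS than farther away, more so in cKO. Over 15 nt centred on the first base, C and T made up 50.7% (48.5 to 52.9) in control and 52.4% (50.5 to 54.2) in cKO, against 74.7% and 72.8% for 5'UTR regions, 53.3% and 58.3% for 3'UTR regions and 48.6% and 47.9% for CDS regions. Near a TSS, the windows of 19 of 24 control and 18 of 23 cKO regions had enough known bases to be used. They had 57.4% (51.6 to 63.1, 162 of 282 bases) in control and 68.5% (62.7 to 73.8, 183 of 267 bases) in cKO. Regions farther away had 49.5% (47.1 to 52.0) and 50.6% (48.6 to 52.6), so the intervals overlapped in control. These intervals count every base as independent, which bases of the same window, of neighbouring regions and of near copies are not. They therefore do not measure the spread between regions, and their overlap or lack of it is a description only. The first base was G in 50.7% of control and 50.0% of cKO regions in non-coding exons, beside 49.5% and 35.4% of 3'UTR regions and 39.5% and 37.0% of CDS regions. In 5'UTR regions the first base was G in 11.3% and 13.1% and T in 65.1% and 58.4%. The letters GTGTGT, read on the sense strand in the 10 nt before the region, were found in 9 of 127 control (7.09%) and 10 of 177 cKO regions (5.65%). They were found in 9.57% and 4.61% of 3'UTR regions and in 0.346% and 0.885% of 5'UTR regions.

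The 8-mer TCCGATCT, read on the sense strand, was the most frequent in the 30 nt from the first base of control regions in non-coding exons. It matches the end of a common Illumina adapter, given as background. It occurred in 15 of 134 control regions (11.2%, 6.90 to 17.6) and in 0 of 186 cKO regions (upper limit 2.02%). Because the 8-mer was picked from these control regions, its share there is raised by that choice, which the interval does not cover. Regions outside exons were not searched for it, so no share over the whole list is given. In other control exons it occurred in 1 of 302 5'UTR, 10 of 196 CDS (5.10%) and 3 of 188 3'UTR regions, and in cKO in 0 of 352, 0 of 408 and 0 of 412. Of the 15, 5 were in lncRNAs, 7 in protein-coding genes, 3 in other types and none in pseudogenes. Their percentiles ranged from 11.5 to 94.8 with a median of 68.5, and they made up 5 of the 22 control regions above a percentile of 75 and 2 of the 5 above 90. Only exact matches were counted, so the region of 1700027A15Rik, at 93.9 with part of the sequence, is not among the 15. None of the 15 was shared. Without them, 119 control regions remained, the shared share was 30.3% and the median percentile 33.1. The part of this sequence in the calls was not tested.

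**Figure D5:**
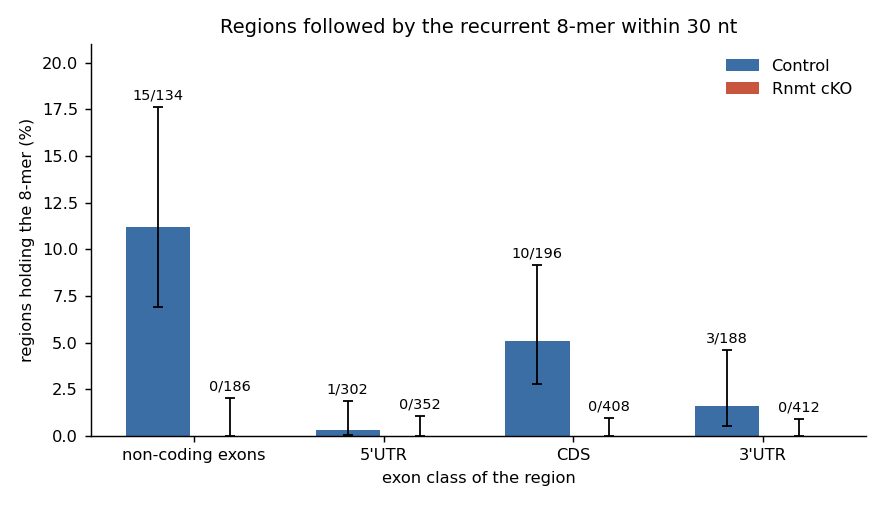
Percentage of regions that hold the recurrent 8-mer in the 30 nt from their first base (y axis) by exon class (x axis), for control (blue) and Rnmt cKO (red, all at 0), with Wilson 95% intervals and counts above the bars. Control regions in non-coding exons, from which the 8-mer was picked, reach 11.2%, and no cKO region in any of the 4 classes holds it.

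Among control regions in non-coding exons, 18 (13.4%) carried a score that occurred at least 20 times in the list, against 34.2% of the whole control list, and in cKO none did. Of the 15 regions with the 8-mer, 8 carried such a score.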

How the data were processed

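The data used were 2 of the 12 libraries, the LARP1 IPs of control and Rnmt cKO naive CD4 T cells, each as 1 list of PureCLIP binding regions. The authors moved barcodes to read names and removed PCR duplicates (UMI-tools), trimmed adapters (cutadapt), aligned the reads with STAR 2.5.2b (mm10, basic GENCODE transcripts), filtered alignments (SAMtools) and called regions in each IP against its size-matched input. Column 5 of the deposited lists is the PureCLIP score, summed over the sites of a region and not scaled between libraries. The later selection by the authors on read ratios to input and IgG was not applied to these lists.

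From the lists, regions were assigned to GENCODE M21 transcripts on GRCm38, and shares were given Wilson 95% intervals and medians order-statistic intervals (Python 3.11.15, scipy 1.17.1). Genes named were those with the highest percentiles, up to 10 lncRNAs, 8 pseudogenes, 8 protein-coding genes and 6 others, plus genes of the lists given. A region in exons of several genes was named after the gene with the most transcripts there. Genes described beyond these, with several regions, in pairs with a wide gap or on an intron's last base, were chosen after their values were seen. Members and lists were chosen with earlier results of these data known. Near copies were sought in annotated transcripts only, with at most 2 mismatches over 30 nt. Assignment, TSS distance and overlap were tested on simulated data. Alternatives were the minimum of crosslink sites, the score, the transcripts, the TSS distance and the base window, and 2 added after seeing the data, without near copies and without the 8-mer.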

Additional observations from a re-analysis of the deposited data

How the results depend on the processing

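No paired analysis was possible because the lists came from 1 library per genotype, and no replicate could be left out. Of 176 alternative values, 125 stayed within the spread or within 1.5 times of the reported one and 51 moved. The scores rest on an unknown depth, and the lists hold only called regions, so a gene without a region is not shown to be unbound.

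With GENCODE basic transcripts alone, 61 control and 71 cKO regions remained, with 0 and 0 in protein-coding genes, shared shares of 39.3% and 33.8%, and median percentiles of 57.3 and 61.5. With at least 2 crosslink sites, 10 control regions remained (4 lncRNA, 2 pseudogene, 3 protein-coding and 1 other) and 57 cKO regions (18, 8, 28 and 3). The shared shares were then 60% and 10.5%, the control share near a TSS was 50%, and C and T made up 56.1% and 55.7%. Above the median score, 50 control regions remained, of which 14 were protein-coding and 2 other, and 91 cKO regions, of which 12 were pseudogene, 41 protein-coding and 6 other. The shared shares were then 48% and 26.4%, and C and T made up 48.2% in cKO. With lists of equal length, 8 control regions were in other gene types and 35.4% of control regions were shared. Within 25 nt of a TSS lay 11.9% of control regions, and within 100 nt 19.4% of cKO regions. Over 7 nt, C and T made up 54.4% in cKO. Without regions with a near copy, 2 control and 5 cKO regions in pseudogenes and 6 cKO regions in other types remained.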
